A study of Mus musculus with 12 samples.

Results

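Cells of the mouse embryonic stem cell line E14 that had spent 18 h in panobinostat (LBH589, 50 nM) were set against cells that had spent 2 h in the same dose. The members were chosen by sample title and are 6 of the 12 arrays of the study, 3 at 18 h and 3 at 2 h. Both groups were drug-exposed, wild type, male and of strain 129/Ola, and differed by label only in the length of exposure. The remaining arrays were 3 at 6 h and 3 of untreated cells (0 h), used here to estimate the spread and to place the 2 compared groups in the time course. Cells were grown feeder-free on gelatin with fetal calf serum and LIF, the cytokine that holds mouse stem cells in self-renewal. No vehicle-treated group is named in the labels, so time in culture and time in drug cannot be told apart between 18 h and 2 h. The labels do not say that the 3 arrays of a group came from separate cultures, so the p-values measure the spread between these arrays.

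Panobinostat is a hydroxamate that inhibits histone deacetylases, which take acetyl groups off lysines of histones and other proteins. Histone acetylation opens chromatin and is read by bromodomain proteins, while deacetylases act inside repressor complexes such as NuRD, Sin3 and CoREST. Mouse embryonic stem cells are held in the naive state by a network of transcription factors around Oct4 (Pou5f1), Sox2, Nanog, Esrrb, Klf4 and Tbx3, together with LIF, Nodal and FGF signals. A comparison of a late with an early time in drug asks which transcripts went on to change after the first hours, and leaves out what the drug had already done by 2 h in both groups.

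Each array reported 45281 probes by their fluorescence intensity, and 11445 of 19057 genes passed a filter on detection above background. Values below are background-corrected, normalized log2 intensities of 1 probe per gene, listed in the order of replicates 1, 2 and 3. On this scale a probe near 4.5 was not above background, and a difference of 1 is 2-fold. Between 16813 and 18111 probes were detected per array in the series. Pearson correlations over genes were 0.976 to 0.984 within 18 h, 0.981 to 0.989 within 2 h and 0.917 to 0.954 between an 18 h and a 2 h array. Stem cell markers were detected at both times, at a lower mean level at 18 h. All 12 tested genes of a core pluripotency list were detected on every array of both groups, with a mean level over the list of 8.42 to 9.16 at 18 h and 10.16 to 10.29 at 2 h. Of 13 fibroblast markers only 6 were tested, and their mean level was 5.73 to 6.17 at 18 h and 5.38 to 5.56 at 2 h. Col1a2, Col3a1, Lum, Dcn, Postn, S100a4 and Fap did not pass the filter on detection. Of 15 blood and endothelial markers 7 were tested, with a mean level of 5.90 to 6.01 at 18 h and 6.15 to 6.47 at 2 h. Lineage lists had mean levels at 18 h of 6.88 to 7.37 (endoderm), 6.99 to 7.55 (trophectoderm and placenta), 5.52 to 5.84 (mesoderm) and 7.52 to 7.78 (neural). At 2 h the same lists read 6.80 to 7.08, 6.36 to 7.33, 5.29 to 5.86 and 6.77 to 7.04. Any part of other cell types in the results was not tested.

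Late and early cells differed across a large share of the measured transcriptome. Of 11445 genes, 3677 (32.1%) differed at an adjusted p under 0.05. At 18 h 2080 genes were higher (18.2%) and 1597 were lower (14%). Large changes leaned upward: 881 genes were at least 2-fold higher (7.7%) and 424 at least 2-fold lower (3.7%), together 1305 (11.4%). All late arrays lay above all early ones at 2821 genes (24.6%) and below them at 2357 (20.6%), called or not. At least 4-fold, the counts were 126 higher and 46 lower, and at least 8-fold 18 higher and 4 lower. Because the arrays measured bulk RNA, fewer cells of a type and less RNA per cell cannot be told apart. The share of higher genes among those called was 56.6%, with a median log2 difference over all genes of 0.016. Scaling the arrays to their 75th percentile in place of quantile normalization turned that split to 1591 higher and 2033 lower (43.9% higher), with a median over all genes of -0.113. The 2-fold count depended on how background was handled and was 435 without background correction and 442 in the authors' normalized values, so the folds of dim genes below hold for background-corrected values.

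**Figure D1:**
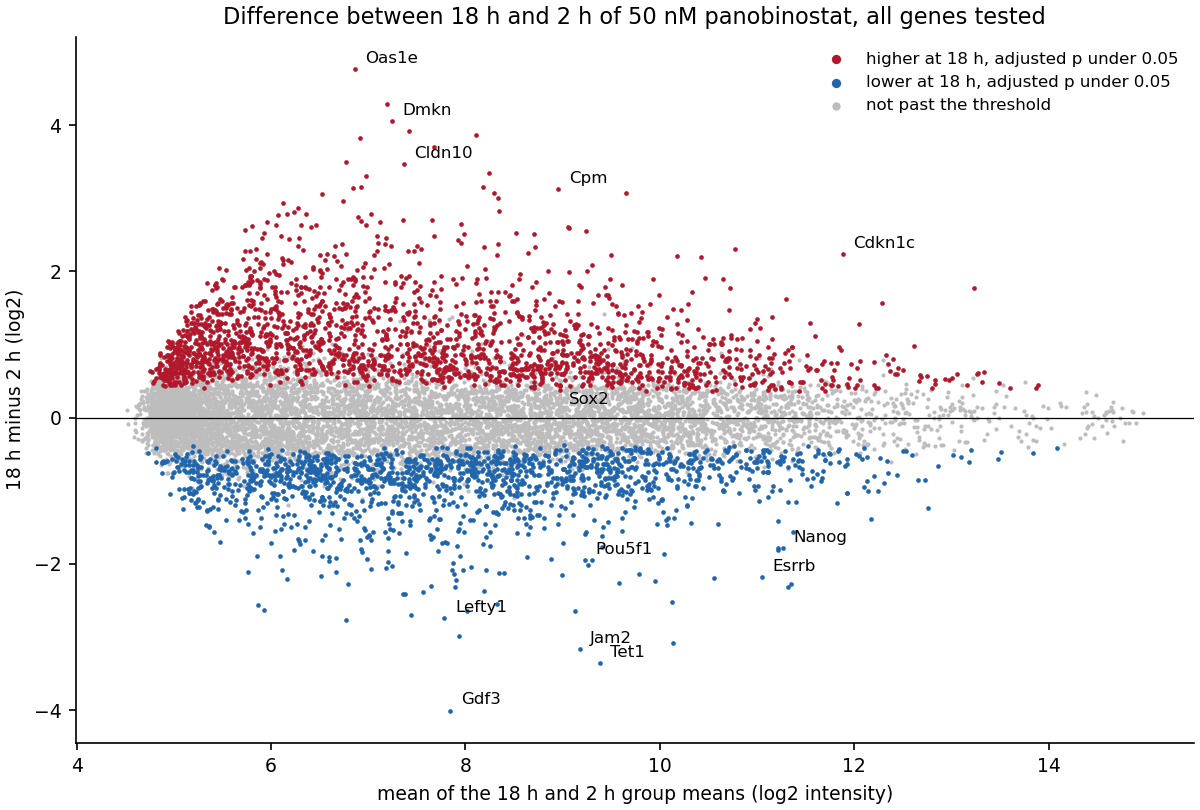
Difference between 18 h and 2 h (log2, vertical axis) against mean log2 intensity (horizontal axis) for the 11445 genes tested. Red points were higher and blue points lower at 18 h at an adjusted p under 0.05, and grey points did not pass. The red cloud reaches 4.77 for Oas1e and the blue cloud -4.01 for Gdf3, while Sox2 lies on the line at 0.10.

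Most of the genes that rose furthest had little or no signal in early cells, and they included secreted and epidermal proteins, claudins, hormones and members of the oligoadenylate synthetase family. Cldn10, a claudin that forms paracellular ion channels, read 9.32, 9.08 and 8.91 at 18 h, against 5.33, 5.82 and 5.76 at 2 h. All late arrays lay more than 3 log2 units above all early ones, a rise of 11.1-fold (log2 3.47 ± 0.16, adjusted p = 1.23e-07), the smallest p of the comparison. Cldn11, the claudin of myelin and of testis tight junctions, read 9.40, 8.35 and 8.71 at 18 h, against 4.73, 4.96 and 5.32 at 2 h. It was detected on 1 of 3 early arrays and its rise was 14.1-fold (log2 3.82 ± 0.24, adjusted p = 1.13e-06). A list of epithelial junction genes holds Cldn10 and not Cldn11. Of its 19 tested genes 2 were higher (10.5%, against 18.2% of all genes) and 4 lower (21.1%, against 14%) at 18 h. The 2 higher ones were Cldn10 and Pkp2 (log2 1.00). The lower count was 1 without 18 h replicate 1 and 1 without 2 h replicate 2.

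Oas1e and Oas1d, neighbouring members of the oligoadenylate synthetase family on chromosome 5, gave the widest spread among late arrays. Oas1e read 10.24, 7.51 and 10.00 at 18 h, against 4.45, 4.40 and 4.60 at 2 h. Replicates 1 and 3 at 18 h stood well above replicate 2, yet each exceeded every early array, none of which was above background. The rise was at least 18.3-fold (adjusted p = 3.7e-05), a bound taken from the dimmest detected probes of the early arrays. Its fitted log2 difference was 4.77, and 5.66 without 18 h replicate 2. Oas1d read 10.52, 8.05 and 10.03 at 18 h, against 5.79, 5.64 and 6.07 at 2 h, again with replicate 2 lowest among the late arrays and no overlap, and rose 13-fold (log2 3.70, and 4.47 without 18 h replicate 2; adjusted p = 7.42e-05). These paralogs are similar in sequence, and whether their probes tell them apart was not tested.

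Dmkn (dermokine) and Krtdap, both secreted by differentiating epidermis, rose together. Dmkn read 10.06, 8.24 and 9.52 at 18 h, against 5.01, 5.22 and 5.39 at 2 h, with replicate 2 lowest at 18 h and no overlap, a rise of 16.7-fold (adjusted p = 1.35e-05). Krtdap read 9.25, 8.13 and 8.49 at 18 h, against 5.48, 5.73 and 4.77 at 2 h and rose 9.83-fold (adjusted p = 2.83e-05). Every late array of both genes exceeded every early one by at least 2 log2 units. Ecm1, an extracellular matrix glycoprotein of skin, read 10.75, 9.88 and 9.12 at 18 h, against 6.48, 6.53 and 6.68 at 2 h. Its late arrays spread over more than 1 log2 unit, and all lay above the tight early group, for a rise of 10.2-fold (adjusted p = 2.35e-05).

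Gpha2, a glycoprotein hormone subunit, read 10.03, 8.82 and 9.31 at 18 h, against 5.42, 5.27 and 5.70 at 2 h and rose 15.2-fold (adjusted p = 5.16e-06). Pyy, the gut peptide hormone, read 9.11, 8.38 and 8.09 at 18 h, against 5.06, 5.17 and 4.84 at 2 h and rose 11.3-fold (adjusted p = 1.2e-05). Spink2, a serine protease inhibitor of sperm, read 10.32, 9.73 and 10.08 at 18 h, against 6.26, 6.01 and 6.28 at 2 h and rose 14.5-fold (adjusted p = 5.13e-07). In all 3 genes the groups were several log2 units apart and did not overlap. Csn3, the milk protein kappa-casein, read 9.68, 9.63 and 9.96 at 18 h, against 6.84, 7.26 and 5.69 at 2 h. Its early arrays differed by more than 1 log2 unit, and the rise was 8.96-fold (adjusted p = 5.63e-05). The rest of the 15 with the largest rise were AU015228 at 19.5-fold, Rgcc, a regulator of the cell cycle, at 8.94-fold, Kctd12, an auxiliary subunit of GABA-B receptors, at 8.82-fold, and Cpm, the membrane enzyme carboxypeptidase M, at 8.72-fold. Cpm was the only gene among the 15 with an early level above 7, reading 10.91, 10.49 and 10.15 at 18 h, against 7.47, 7.36 and 7.34 at 2 h. A further, dim probe of AU015228 read a log2 difference of 1.13, and those of Cldn10 read 2.59 and 0.99.

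**Figure D2:**
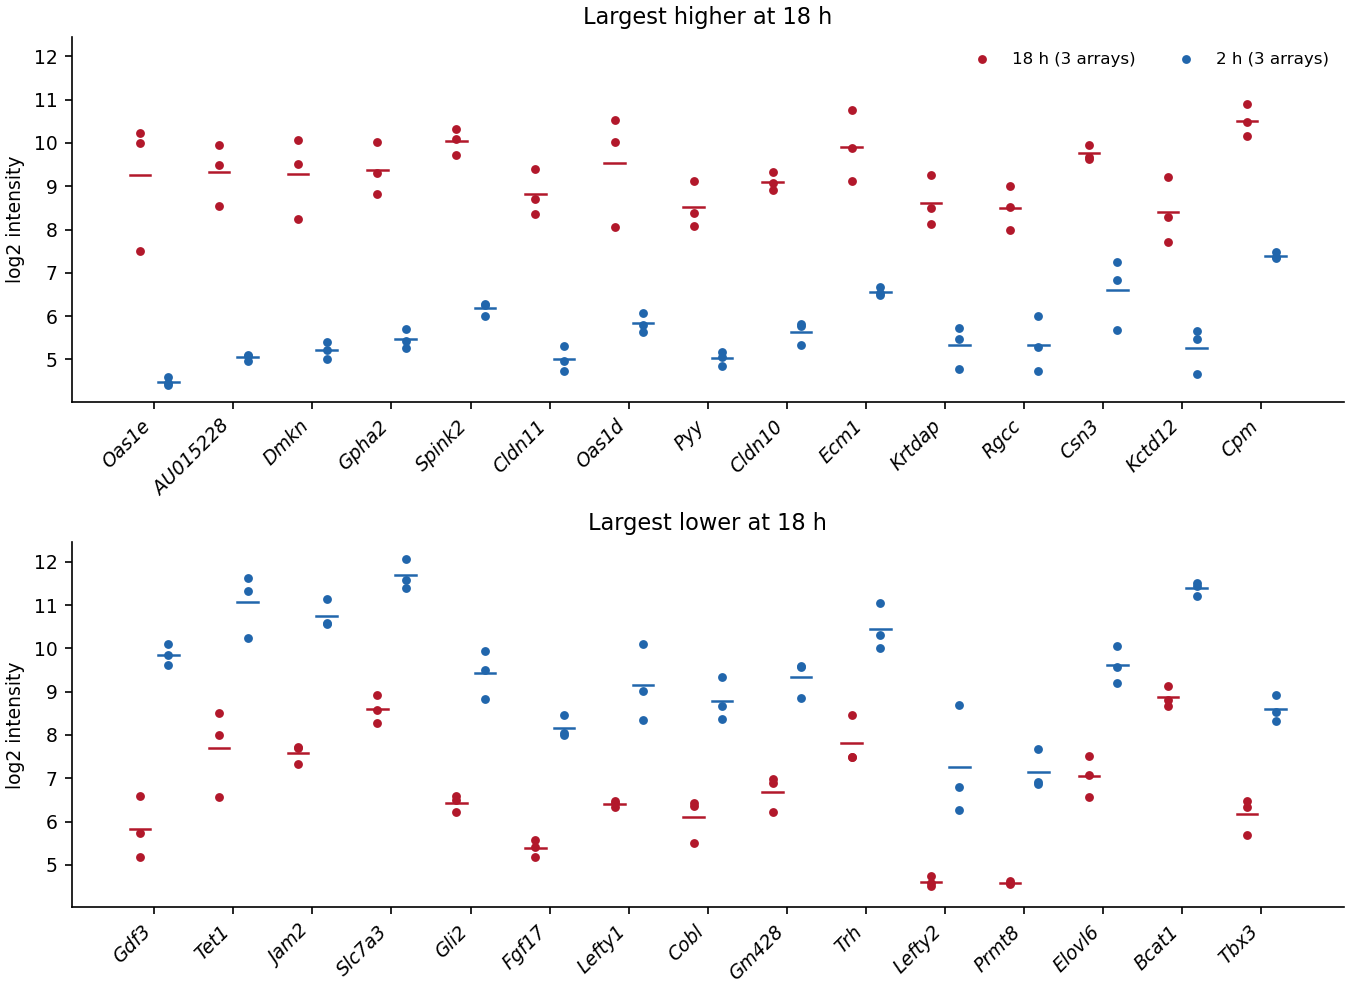
Log2 intensity on each array for the 15 genes with the largest rise (top) and the 15 with the largest fall (bottom) between 18 h and 2 h. For each gene, points are arrays and short bars are means of 3, with 18 h in red on the left and 2 h in blue on the right. In none of the 30 genes do the red and blue points overlap, and the late values of Oas1e and Oas1d are the most spread.

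The genes that fell furthest included ligands of the TGF-beta and FGF families, the DNA demethylase Tet1, amino acid and lipid enzymes, and surface proteins. Gdf3, a TGF-beta ligand made by pluripotent cells, read 5.18, 5.74 and 6.59 at 18 h, against 9.85, 9.61 and 10.09 at 2 h. Each late array was at least 3 log2 units below each early one, a fall of 16.1-fold (log2 -4.01 ± 0.35, adjusted p = 9.65e-06). Tet1, the dioxygenase that oxidizes 5-methylcytosine, read 6.56, 8.51 and 8.01 at 18 h, against 11.33, 10.24 and 11.62 at 2 h. Both groups spread by more than 1 log2 unit, with replicate 1 lowest at 18 h and replicate 2 lowest at 2 h, and they did not overlap. Its fall was 10.3-fold (log2 -3.36 ± 0.52, adjusted p = 0.000445).

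Slc7a3, a transporter of cationic amino acids, read 8.28, 8.93 and 8.58 at 18 h, against 12.07, 11.59 and 11.40 at 2 h and fell 8.53-fold (adjusted p = 5.16e-06). Bcat1, which starts the breakdown of branched-chain amino acids, read 8.66, 9.14 and 8.80 at 18 h, against 11.52, 11.45 and 11.21 at 2 h and fell 5.75-fold (adjusted p = 3.12e-06). Elovl6, an elongase of long-chain fatty acids, read 6.56, 7.07 and 7.52 at 18 h, against 9.56, 9.20 and 10.06 at 2 h and fell 5.87-fold (adjusted p = 3.02e-05). The early arrays of Slc7a3 and Bcat1 were among the brightest of these genes, and all 3 genes had separate groups. Slc1a3, a glutamate transporter, fell 5.22-fold (adjusted p = 3.7e-06), and Nsmaf, an adaptor of sphingomyelinase signalling, fell 4.5-fold (adjusted p = 4.08e-06).

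Gli2, a transcription factor of the Hedgehog pathway, read 6.23, 6.58 and 6.50 at 18 h, against 9.49, 8.84 and 9.94 at 2 h and fell 7.94-fold (adjusted p = 3.22e-05). Its late arrays lay close together and its early ones spread by about 1 log2 unit, without overlap. A second, dim probe of Gli2 read a log2 difference of -0.70. Cobl, an actin nucleator, fell 6.48-fold, Trh, the precursor of thyrotropin-releasing hormone, fell 6.24-fold, and Gm428 fell 6.27-fold, with adjusted p of 7.85e-05, 0.00117 and 3.02e-05. Prmt8, a membrane-bound arginine methyltransferase, was not above background on any late array and fell at least 4.42-fold (adjusted p = 6.98e-05).

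The pluripotency network was lower in late cells at most of its members, Sox2 not among them. Of 12 tested core pluripotency genes 9 fell and 0 rose, with a median log2 difference of -0.98, against 14% falling and a median of 0.016 over all genes. Pou5f1, which encodes Oct4, read 8.04, 8.25 and 8.49 at 18 h, against 10.35, 10.22 and 10.07 at 2 h. The groups were far apart and tight, and the fall was 3.87-fold (log2 -1.95 ± 0.17, adjusted p = 1.2e-05). Utf1, a chromatin protein of undifferentiated cells, read 6.44, 7.03 and 7.32 at 18 h, against 9.11, 8.87 and 9.07 at 2 h and fell 4.26-fold (adjusted p = 2.77e-05). L1td1, an RNA-binding protein of pluripotent cells, read 7.91, 8.65 and 9.59 at 18 h, against 11.00, 10.74 and 10.83 at 2 h and fell 4.39-fold (adjusted p = 0.00104). Both genes had late arrays spread over about 1 log2 unit or more and early arrays within 0.3 of each other, with no overlap. Dppa2, a chromatin regulator of pluripotent cells, fell 3.42-fold (adjusted p = 0.000232).

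Sox2, the partner of Oct4, read 8.12, 9.39 and 9.53 at 18 h, against 8.96, 8.78 and 8.98 at 2 h. Late replicate 1 was the lowest of the 6 arrays and late replicates 2 and 3 were the highest, so the groups overlapped and no difference was called (log2 0.10 ± 0.32, adjusted p = 0.836). Untreated cells read 9.93, 9.54 and 10.54 for Sox2, each above every one of these 6 arrays.

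Naive pluripotency genes fell to a similar or larger extent. Of 15 tested, 11 fell (73.3%, against 14% of all genes) and 0 rose, with a median of -1.50. Each of the 11 fell at least 2-fold, as did 3.7% of all genes. Esrrb, an orphan nuclear receptor of the naive network, read 9.60, 10.15 and 10.12 at 18 h, against 12.08, 11.68 and 12.65 at 2 h and fell 4.52-fold (adjusted p = 0.00012). Nanog, a homeodomain factor, read 9.33, 10.96 and 10.82 at 18 h, against 12.20, 11.91 and 12.37 at 2 h and fell 3.46-fold (adjusted p = 0.00135). Late replicate 1 stood more than 1 log2 unit below the other late arrays for Nanog, and the groups of both genes were separate. A dim second probe of Esrrb read a log2 difference of -0.28. Zfp42 (Rex1), a zinc finger protein used as a marker of the naive state, read 7.58, 7.61 and 8.56 at 18 h, against 9.75, 9.63 and 10.17 at 2 h and fell 3.82-fold (adjusted p = 0.000778). Klf4, a zinc finger factor downstream of LIF, read 8.48, 7.80 and 7.88 at 18 h, against 9.39, 9.39 and 9.89 at 2 h and fell 2.84-fold (adjusted p = 0.000531). Tbx3, a T-box factor, read 6.34, 6.47 and 5.70 at 18 h, against 8.53, 8.32 and 8.93 at 2 h and fell 5.36-fold (adjusted p = 5.06e-05). In all of these genes every late array was below every early one. Nr5a2, a nuclear receptor upstream of Pou5f1, fell 5.34-fold, Jam2, a junctional adhesion molecule, fell 8.99-fold, and Tfcp2l1, a CP2-family factor, fell 2.02-fold (adjusted p = 0.000341, 7.55e-06 and 0.00429).

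Genes of the formative and primed states, which follow the naive state in the embryo, were not higher in late cells. Of 10 tested, 6 fell (60%, against 14% of all genes) and 0 rose, with a median of -0.82. Otx2, a homeodomain factor of the epiblast, read 5.14, 6.45 and 7.28 at 18 h, against 8.17, 8.01 and 8.17 at 2 h, with the late arrays spread over more than 2 log2 units and all below the early ones, and fell 3.55-fold (adjusted p = 0.00332). Sall2, a zinc finger factor, fell 2.8-fold, Etv5 and Etv4, ETS factors downstream of FGF signals, fell 2.63-fold and 1.79-fold, and Dnmt3b, a de novo DNA methyltransferase, fell 1.82-fold. The adjusted p of these were 0.000428, 0.000212, 0.00589 and 0.00671. Pou3f1, an epiblast POU factor, read 8.98, 9.12 and 8.80 at 18 h, against 9.96, 10.19 and 9.17 at 2 h. It fell 1.75-fold (adjusted p = 0.0354), a call lost without any one late array (adjusted p 0.0521 to 0.0969) and without 2 h replicate 1 (0.113) or 2 (0.141). The 4 members that did not pass the test were Lef1 (log2 -0.80), Fgf5 (log2 -0.65), Grhl2 (log2 -0.03) and Cdh2 (log2 0.02). Lef1 passed with 75th percentile scaling (adjusted p = 0.0206), cyclic loess (0.0404), array weights (0.0179), the 18 h and 2 h arrays alone (0.0145) or without 0 h replicate 2 (0.00391), and Fgf5 passed with 75th percentile scaling (0.0132) or the replicate block (0.0361).

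Ligands, processing enzymes and effectors of the Nodal pathway, which signals through SMAD2 and SMAD3 in stem cells, were mostly lower. Of 14 tested genes 10 fell (71.4%, against 14% of all genes) and 0 rose, with a median of -0.79. Without 18 h replicate 1 or without 2 h replicate 2, 6 fell. Gdf3, which fell, and Tdgf1 belong both to this list and to the core pluripotency list. Lefty1, a secreted Nodal antagonist and Nodal target, read 6.48, 6.33 and 6.42 at 18 h, against 8.34, 9.01 and 10.11 at 2 h. Its late arrays lay within 0.2 of each other, below early arrays that spread over nearly 2 log2 units, a fall of 6.7-fold (log2 -2.74 ± 0.53, adjusted p = 0.00194). Lefty2, its neighbour on chromosome 1, read 4.52, 4.58 and 4.74 at 18 h, against 6.26, 6.80 and 8.69 at 2 h. No late array was above background, so the fall was at least 4.73-fold (adjusted p = 0.00241). Early replicate 3 was the brightest, and the fitted log2 difference of -2.63 was -1.94 without it. Pcsk6, a convertase that cleaves Nodal-family precursors, read 7.23, 7.62 and 7.27 at 18 h, against 9.17, 8.97 and 9.24 at 2 h and fell 3.38-fold (adjusted p = 1.2e-05). Foxh1, the DNA-binding partner of SMAD2, was above background on 0 of 3 late and 3 of 3 early arrays and fell at least 1.19-fold (adjusted p = 0.00211).

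FGF and LIF pathway genes gave a mixed picture. Fgf17, a ligand of the FGF8 subfamily, read 5.17, 5.41 and 5.58 at 18 h, against 8.45, 7.99 and 8.04 at 2 h and fell 6.83-fold (adjusted p = 7.55e-06), and Fgf15 fell 2.53-fold (adjusted p = 0.000737). They were the 2 of 9 tested FGF ligands, receptors and binding proteins that changed (22.2% lower, against 14% of all genes). In the LIF and STAT3 pathway 4 of 13 genes fell (30.8%, against 14% of all genes) and 1 rose (7.69%, against 18.2%). Among the 4 were Klf4 and Tfcp2l1, which are also counted in the naive pluripotency list. The higher count reached 4 without 0 h replicate 2. Socs2, a feedback inhibitor of cytokine receptors, read 7.58, 8.36 and 8.83 at 18 h, against 10.31, 10.06 and 10.44 at 2 h and fell 4.04-fold (adjusted p = 0.000224). Socs3, the feedback inhibitor of the LIF receptor complex, went the other way, reading 11.03, 11.00 and 11.15 at 18 h, against 10.29, 9.90 and 9.96 at 2 h, a rise of 2.01-fold (adjusted p = 0.00134). In both genes the groups were separate. Il6st, the shared gp130 receptor chain, fell 1.54-fold (adjusted p = 0.00615).

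**Figure D3:**
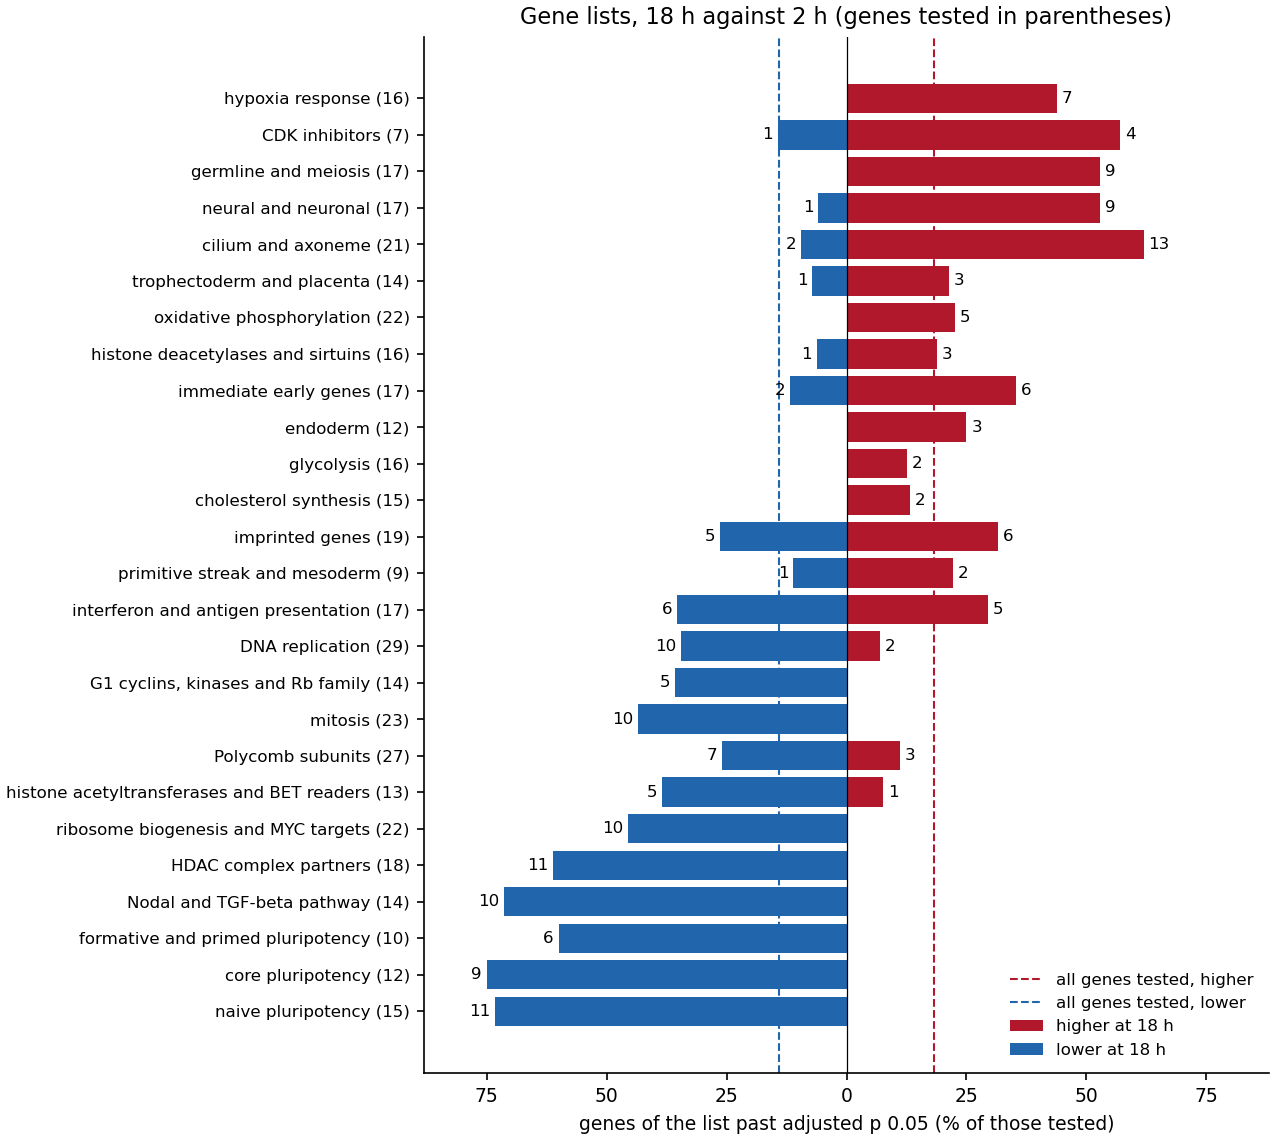
Share of the tested genes of each list shown that were higher (red, to the right) or lower (blue, to the left) at 18 h than at 2 h at an adjusted p under 0.05, with counts at the bar ends and lists ordered by their median difference. Dashed lines mark the shares over all genes tested, 18.2% higher and 14% lower. The pluripotency, Nodal and HDAC complex lists reach furthest left, and the cilium, CDK inhibitor, germline and neural lists furthest right.

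Deacetylases and sirtuins, taken as 1 list, were higher at the share of all genes, and many partners of deacetylase complexes fell. The list is wider than the drug's targets, as it holds the sirtuins. Hdac1 had no probe under its name and was not tested. Of 16 tested deacetylases and sirtuins 3 were higher (18.8%, against 18.2% of all genes) and 1 lower (6.25%, against 14%). The 3 were Hdac3, Hdac5 and Sirt2, and the higher count was 1 without 2 h replicate 1. Hdac2, a catalytic subunit of the nuclear complexes, read 12.27, 12.25 and 12.33 at 18 h, against 12.34, 12.36 and 12.21 at 2 h, with overlapping groups and no difference called (adjusted p = 0.932). Hdac3, the catalytic subunit of the NCoR complexes, read 10.64, 10.77 and 10.53 at 18 h, against 9.88, 10.21 and 10.17 at 2 h and rose 1.48-fold (adjusted p = 0.0125). That call was lost with 75th percentile scaling (adjusted p = 0.117) and without 2 h replicate 1 (adjusted p = 0.061). Sirt2, an NAD-dependent tubulin deacetylase that hydroxamates do not inhibit, read 8.27, 8.00 and 8.05 at 18 h, against 6.88, 6.66 and 6.49 at 2 h. Late and early arrays of Sirt2 were more than 1 log2 unit apart, a rise of 2.69-fold (adjusted p = 0.000186). Hdac4, a class IIa deacetylase, fell 1.61-fold (adjusted p = 0.00652).

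Of 18 tested partners of deacetylase complexes 11 fell (61.1%, against 14% of all genes) and 0 rose, with a median of -0.67. Mta3, a subunit of NuRD, read 8.54, 9.34 and 9.46 at 18 h, against 11.05, 10.81 and 11.10 at 2 h and fell 3.67-fold (adjusted p = 7.42e-05), with every late array more than 1 log2 unit below the early ones. Chd4, the NuRD remodelling ATPase, fell 1.68-fold, Rcor2, the stem cell form of CoREST, fell 2.18-fold, and Tbl1x, a subunit of the NCoR complexes, fell 2.06-fold (adjusted p = 0.00213, 0.00382 and 0.00282). Sap30, a subunit of the Sin3 complex, read 11.53, 11.47 and 11.74 at 18 h, against 12.14, 12.24 and 12.31 at 2 h and fell 1.58-fold (adjusted p = 0.00371), a small but cleanly separated difference.

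Some histone acetyltransferases, which oppose the deacetylases, were lower as well. Of 13 tested acetyltransferases and BET readers 5 fell (38.5%, against 14% of all genes) and 1 rose (7.69%, against 18.2%). Kat6b, a histone H3 acetyltransferase, read 8.99, 9.36 and 9.39 at 18 h, against 10.59, 10.45 and 11.06 at 2 h and fell 2.74-fold (adjusted p = 0.000229). Further, dim probes of Kat6b read log2 differences of -0.55 and -0.21. Crebbp (CBP) read 5.90, 6.42 and 5.93 at 18 h, against 7.32, 7.17 and 7.21 at 2 h and fell 2.22-fold (adjusted p = 0.000752). Kat2b (PCAF) was above background on 0 of 3 late and 3 of 3 early arrays and fell at least 1.99-fold (adjusted p = 0.00923), and Kat2a (GCN5) fell 1.65-fold (adjusted p = 0.00993). The one that rose was Brdt, the BET reader of the male germ line, which read 7.78, 7.83 and 8.06 at 18 h, against 5.88, 5.91 and 5.81 at 2 h. Its groups were tight and nearly 2 log2 units apart, a rise of 4.06-fold (adjusted p = 8.47e-06), and its second probe read a log2 difference of 2.73.

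Polycomb subunits place and read repressive histone marks. Of 27 tested 7 fell (25.9%, against 14% of all genes), 3 rose (11.1%, against 18.2%) and 17 did not pass the test. Only 1 rose when late replicate 2, early replicate 1 or early replicate 3 was left out, or with 75th percentile scaling. Phc1, a subunit of the canonical complex PRC1, read 10.41, 10.74 and 10.63 at 18 h, against 12.10, 12.04 and 12.33 at 2 h and fell 2.96-fold (adjusted p = 1.48e-05). Its paralog Phc2 read 10.02, 10.08 and 9.88 at 18 h, against 8.93, 9.09 and 9.18 at 2 h and rose 1.9-fold (adjusted p = 0.00104). Neither gene's groups overlapped. Bcor, a subunit of a variant PRC1, fell 2.32-fold, and Epop and Aebp2, accessory subunits of PRC2, fell 2.04-fold and 1.75-fold (adjusted p = 0.00389, 0.00562 and 0.00473). Among 13 tested histone genes with polyadenylated transcripts 2 rose (15.4%, against 18.2% of all genes) and 1 fell (7.69%, against 14%). The risers were H1f10, a linker histone, 3.09-fold (adjusted p = 1.67e-05), and H2bc4, a histone H2B gene, 2.57-fold (adjusted p = 0.000576), and H2az1, a variant of histone H2A, fell 1.91-fold (adjusted p = 0.00473).

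Ciliary genes had the largest share of risers among the lists. Cilia are microtubule-based organelles built by intraflagellar transport, and many of their genes are activated by RFX factors that bind the sequence GTTGCC. Of 21 tested genes 13 rose (61.9%, against 18.2% of all genes) and 2 fell (9.52%, against 14%), with a median log2 difference of 0.60. Ift88, a core subunit of the transport train, read 7.98, 8.14 and 8.33 at 18 h, against 6.95, 6.92 and 6.85 at 2 h and rose 2.37-fold (adjusted p = 4.53e-05). Kif3a, a subunit of the kinesin that drives the train, read 9.37, 9.17 and 9.51 at 18 h, against 8.02, 8.16 and 8.19 at 2 h and rose 2.34-fold (adjusted p = 8.2e-05). Arl3, a small GTPase that releases ciliary cargo, read 9.07, 8.61 and 9.01 at 18 h, against 7.25, 7.25 and 7.45 at 2 h and rose 2.99-fold (adjusted p = 3.64e-05). For each of these, all late arrays were about 1 log2 unit or more above the early ones. Rsph1, a radial spoke protein of motile cilia, read 10.25, 9.37 and 9.95 at 18 h, against 7.77, 7.49 and 8.28 at 2 h and rose 4.04-fold (adjusted p = 6.28e-05). Dynlrb2, a dynein light chain, read 7.58, 6.40 and 7.06 at 18 h, against 4.50, 4.38 and 4.47 at 2 h. None of its early arrays and all of its late arrays were above background, a rise of at least 3.88-fold (adjusted p = 2.16e-05). The 2 that fell were Dnaic1, an axonemal dynein chain, by 1.81-fold (adjusted p = 0.0121), and Rfx2, itself an RFX factor, which read 9.16, 8.86 and 8.80 at 18 h, against 9.62, 9.15 and 9.84 at 2 h. The Rfx2 groups overlapped, and its call (adjusted p = 0.0305) was lost without 18 h replicate 2 (0.0816) or 3 (0.0886) and without 2 h replicate 1 (0.0925) or 3 (0.129).

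The promoters of 3 ciliary risers are shown because they carry the RFX sequence. RefSeq promoter windows on GRCm38.p6 span 250 bases before to 50 bases after each annotated start, and capitals mark GTTGCC or its reverse complement GGCAAC.
Dynlrb2, chr8:116504765-116505064, plus strand: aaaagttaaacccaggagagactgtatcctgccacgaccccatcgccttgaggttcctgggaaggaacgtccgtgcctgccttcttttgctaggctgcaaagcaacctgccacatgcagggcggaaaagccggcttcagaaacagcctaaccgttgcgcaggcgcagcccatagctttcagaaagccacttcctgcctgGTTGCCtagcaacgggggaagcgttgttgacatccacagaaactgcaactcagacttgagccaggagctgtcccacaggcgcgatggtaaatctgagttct
Ift88, chr14:57423821-57424120, plus strand: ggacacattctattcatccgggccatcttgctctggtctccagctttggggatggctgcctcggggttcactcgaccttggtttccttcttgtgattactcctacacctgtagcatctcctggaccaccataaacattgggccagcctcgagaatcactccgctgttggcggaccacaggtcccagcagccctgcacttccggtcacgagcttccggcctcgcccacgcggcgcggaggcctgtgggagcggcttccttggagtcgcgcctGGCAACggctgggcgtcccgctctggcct
Kif3a, chr11:53567119-53567418, plus strand: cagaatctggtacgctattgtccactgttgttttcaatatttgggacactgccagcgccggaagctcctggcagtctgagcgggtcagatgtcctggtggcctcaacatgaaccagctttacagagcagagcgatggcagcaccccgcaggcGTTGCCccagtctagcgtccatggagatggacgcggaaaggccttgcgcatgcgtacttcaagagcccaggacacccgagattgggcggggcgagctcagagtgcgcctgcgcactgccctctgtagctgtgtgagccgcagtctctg
Over both strands, 14 of 20 windows of the 19 tested ciliary genes that had one held the sequence (70.0%) and 9 of 13 windows of those that rose (69.2%), against 4111 of all 32851 windows (12.5%). Windows of all genes that rose held it at 13.7% and windows of all genes that fell at 12.0%, close to the 12.7% of windows of all genes tested. The motif and the genes printed were chosen with these values known, and a match describes letters in the window and no binding.

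Hypoxia-response genes, which HIF factors activate at the core sequences ACGTG or GCGTG, were in part higher in late cells. Of 16 tested 7 rose (43.8%, against 18.2% of all genes), 0 fell and 9 did not pass the test, with a median of 1.06. All 7 were at least 2-fold higher, as were 7.7% of all genes. Ankrd37, an ankyrin repeat protein and HIF target, read 11.08, 11.16 and 11.34 at 18 h, against 8.00, 8.47 and 7.91 at 2 h. The late arrays were within 0.3 of each other and far above the early ones, a rise of 8.38-fold (log2 3.07 ± 0.28, adjusted p = 1.46e-05). P4ha2 and P4ha1, prolyl hydroxylases that mature collagen, rose 3.47-fold (adjusted p = 0.00329) and 2.6-fold (adjusted p = 0.000724). P4ha2 read 10.64, 10.53 and 9.83 at 18 h, against 8.45, 9.22 and 7.95 at 2 h, with late replicate 3 and early replicate 3 the lowest of their groups and no overlap. Bnip3l, a mitophagy receptor, read 11.49, 11.16 and 11.18 at 18 h, against 10.25, 10.26 and 10.05 at 2 h and rose 2.13-fold (adjusted p = 0.000253). Bhlhe40, a transcriptional repressor of the clock and hypoxia responses, rose 4.68-fold (adjusted p = 0.00174). Means at 0, 2, 6 and 18 h were 8.87, 8.12, 8.62 and 11.19 for Ankrd37 and 10.23, 8.38, 7.80 and 10.61 for Bhlhe40, so by these means most of the rise lay after 6 h in both.

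Promoter windows of 3 hypoxia risers follow, with both core sequences in capitals on either strand (read as CACGT for the one and as CACGC for the other on the reverse strand).
Ankrd37, chr8:45999801-46000100, minus strand: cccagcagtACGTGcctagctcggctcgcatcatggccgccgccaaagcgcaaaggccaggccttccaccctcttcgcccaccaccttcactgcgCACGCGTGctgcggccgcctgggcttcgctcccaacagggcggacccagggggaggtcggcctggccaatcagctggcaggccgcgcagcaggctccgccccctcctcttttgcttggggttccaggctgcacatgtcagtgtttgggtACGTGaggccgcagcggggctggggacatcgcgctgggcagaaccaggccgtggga
P4ha2, chr11:54100674-54100973, plus strand: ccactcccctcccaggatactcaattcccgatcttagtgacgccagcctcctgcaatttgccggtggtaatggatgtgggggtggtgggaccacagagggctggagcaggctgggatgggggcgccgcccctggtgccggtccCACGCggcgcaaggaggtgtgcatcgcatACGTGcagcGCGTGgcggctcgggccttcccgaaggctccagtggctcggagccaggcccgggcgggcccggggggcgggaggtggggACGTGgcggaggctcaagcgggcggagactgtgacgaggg
P4ha1, chr10:59323046-59323345, plus strand: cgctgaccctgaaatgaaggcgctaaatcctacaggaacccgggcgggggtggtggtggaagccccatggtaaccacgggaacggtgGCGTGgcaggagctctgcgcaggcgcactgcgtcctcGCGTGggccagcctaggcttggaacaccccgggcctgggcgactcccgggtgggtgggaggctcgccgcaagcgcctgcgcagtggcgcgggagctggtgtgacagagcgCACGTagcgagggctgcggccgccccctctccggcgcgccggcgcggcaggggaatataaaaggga
These letters stood in 5 of 5 windows of hypoxia genes that rose and in 14 of 19 windows of the 13 tested genes that had one (73.7%), against 14380 of all 32851 windows (43.8%) and 60.5% of windows of all genes tested. They are short, and overlap the E-box CACGTG. These genes too were chosen with their values known, and a match describes letters only.

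Many germline and meiosis genes rose. Of 17 tested 9 rose (52.9%, against 18.2% of all genes) and 0 fell, with a median of 0.68. Of the 9, 5 rose at least 2-fold, as did 7.7% of all genes. Asz1, a protein of the germ cell nuage, read 7.06, 7.10 and 7.59 at 18 h, against 5.76, 5.90 and 5.71 at 2 h and rose 2.76-fold (adjusted p = 6.07e-05). Piwil2, a Piwi protein of the germ line, read 8.47, 8.32 and 8.37 at 18 h, against 7.71, 7.37 and 7.47 at 2 h and rose 1.83-fold (adjusted p = 0.0018). Sycp2, of the synaptonemal complex, read 5.69, 5.99 and 5.82 at 18 h, against 4.57, 4.83 and 4.60 at 2 h, above background on all late arrays and on no array at 0, 2 or 6 h, at least 1.71-fold higher. It passed the filter through its late arrays alone and had to differ in detection, so its count among the 9 supports nothing. Groups were separate for all 3. Tdrd6, a Tudor protein of spermatids, rose at least 1.65-fold (adjusted p = 0.000376). Genes of the 2-cell-like state, which flickers in stem cell cultures, were less clear. Zscan4c read 11.65, 10.80 and 11.43 at 18 h, against 11.17, 11.24 and 10.93 at 2 h with overlapping groups (adjusted p = 0.603). Of 5 tested members 2 rose (40%, against 18.2% of all genes), Tmem92 at an adjusted p of 0.0369 and Tcstv3 at 0.0471. Late replicate 1 was the highest array for both, and without it neither passed (adjusted p = 0.158 for Tmem92 and 0.204 for Tcstv3). Both calls were also lost without 18 h replicate 2 and without any one 2 h array (adjusted p 0.0521 to 0.161).

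The neural and neuronal list gave more risers than fallers. Of its 17 tested genes 9 rose (52.9%, against 18.2% of all genes), 7 at least 2-fold (against 7.7%), and 1 fell (5.88%, against 14%). The other 7 did not pass the test, and the median was 0.66. Syt1, the calcium sensor of synaptic vesicles, read 7.35, 7.40 and 7.29 at 18 h, against 5.10, 5.03 and 4.45 at 2 h, tight and far above the early arrays, a rise of 5.6-fold (adjusted p = 5.63e-05). Map2, a microtubule protein of dendrites, read 8.46, 8.91 and 8.68 at 18 h, against 6.28, 6.52 and 6.18 at 2 h and rose 5.11-fold (adjusted p = 6.71e-05). Syp (synaptophysin) read 8.24, 7.67 and 7.33 at 18 h, against 6.22, 6.55 and 6.09 at 2 h and rose 2.76-fold (adjusted p = 0.00102), and Rtn1, a reticulon of neurons, rose 2.2-fold (adjusted p = 0.000131). Ncam1, a neural adhesion molecule, read 8.93, 9.81 and 8.23 at 18 h, against 7.33, 6.95 and 7.64 at 2 h and rose 3.22-fold (adjusted p = 0.00134), although its second, dimmer probe read a difference of -0.16. Stmn2, a microtubule destabilizer of growing axons, read 8.86, 9.03 and 9.01 at 18 h, against 9.89, 9.66 and 10.16 at 2 h and fell 1.91-fold (adjusted p = 0.00247). The other 9 listed genes, Pax6, Sox1, Tubb3, Dcx, Stmn3, Snap25, Neurog1, Neurog2 and Nefl, did not pass the filter on detection. Progenitor and neuronal markers were both among them, and without that filter the median of the list was 0.08. The mean level over the 17 genes was 7.52 to 7.78 at 18 h and 6.77 to 7.04 at 2 h.

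Several inhibitors of cyclin-dependent kinases rose between 2 h and 18 h, and p21 was not among them. Of 7 tested CDK inhibitors 4 rose (57.1%, against 18.2% of all genes) and 1 fell (14.3%, against 14%). Over the alternatives 3 to 4 rose, and the list median ran from 0.34 to 1.01. Cdkn1c (p57), which is imprinted, read 13.73, 12.43 and 12.85 at 18 h, against 10.90, 10.85 and 10.54 at 2 h. Late replicate 1 was the highest and the groups did not overlap, for a rise of 4.71-fold (log2 2.24 ± 0.31, adjusted p = 0.000216). Cdkn2b (p15) read 8.60, 8.83 and 8.28 at 18 h, against 7.39, 7.18 and 7.30 at 2 h and rose 2.43-fold (adjusted p = 0.000179), and Cdkn2c (p18) rose 1.9-fold (adjusted p = 0.000992). Cdkn2a read 5.79, 6.46 and 6.04 at 18 h, against 4.72, 5.84 and 4.84 at 2 h, with overlapping groups, and its rise (adjusted p = 0.0159) was lost when late replicate 2 (0.0664), early replicate 1 (0.0751) or early replicate 3 (0.0636) was left out. That call was also lost with the mean of all kept probes (0.0918), and a dim second probe read a log2 difference of 0.02. Cdkn1a (p21), the p53 target that deacetylase inhibitors raise in many cell types, read 9.71, 9.82 and 9.61 at 18 h, against 9.54, 9.65 and 9.94 at 2 h. Its late and early arrays overlapped (log2 0.00 ± 0.20, adjusted p = 0.992). Both groups were drug-exposed, so this comparison does not show whether Cdkn1a had already changed by 2 h. Cdkn1b (p27) went the other way and was above background on 0 of 3 late and 3 of 3 early arrays, a fall of at least 1.84-fold (adjusted p = 0.00481).

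Some genes that drive the cycle were lower. Ccnd1 (cyclin D1) read 8.02, 9.05 and 8.29 at 18 h, against 10.89, 10.88 and 10.37 at 2 h and fell 4.78-fold (adjusted p = 9.23e-05), and E2f3, an S-phase transcription factor, fell 1.95-fold (adjusted p = 0.0008). They were 2 of 5 that fell among 14 tested G1 genes (35.7%, against 14% of all genes). The count of 5 became 3 without 2 h replicate 1 and 2 without 2 h replicate 3. In the DNA replication list 10 of 29 fell (34.5%, against 14% of all genes) and 2 rose (6.9%, against 18.2%). Without 2 h replicate 1, 5 fell. Cdc6, which loads the replicative helicase, read 9.15, 8.61 and 8.76 at 18 h, against 10.37, 10.40 and 10.41 at 2 h and fell 2.93-fold (adjusted p = 3.7e-05), with early arrays within 0.1 of each other and all late ones more than 1 log2 unit lower. A dim second probe of Cdc6 read a log2 difference of -0.62. Mcm3 and Mcm2, helicase subunits, fell 1.99-fold and 1.63-fold, and Tyms, the thymidylate synthase, fell 1.88-fold (adjusted p = 0.00134, 0.00435 and 0.00274). In the mitosis list 10 of 23 fell (43.5%, against 14% of all genes), none by 2-fold, and 0 rose (against 18.2%). Without 18 h replicate 1 or without 2 h replicate 3, 6 fell. Nusap1, a spindle protein, fell 1.92-fold, Aurka, a spindle kinase, 1.76-fold, and Cenpa, the centromeric histone, 1.72-fold (adjusted p = 0.00119, 0.00615 and 0.00679).

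Ribosome biogenesis genes and other targets of MYC gave fallers only. Of 22 tested 10 fell (45.5%, against 14% of all genes), 0 rose and 12 did not pass the test, with a median of -0.52. The count of falls was 6 without 18 h replicate 2 and 5 without 2 h replicate 1. Nop56, of the particles that methylate ribosomal RNA, read 8.00, 8.00 and 8.36 at 18 h, against 9.57, 9.38 and 9.53 at 2 h and fell 2.58-fold (adjusted p = 0.001). Rrp1b, a nucleolar protein, fell 2.18-fold, Rrp9, a subunit of the U3 particle, 1.84-fold, and Wdr43, of the small subunit processome, 1.82-fold (adjusted p = 0.00086, 0.0042 and 0.00382).

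Immediate early genes, which respond within minutes to growth signals, divided. Of 17 tested 6 rose (35.3%, against 18.2% of all genes) and 2 fell (11.8%, against 14%). Fos, the AP-1 subunit, read 10.61, 9.73 and 9.33 at 18 h, against 10.45, 10.01 and 10.17 at 2 h. Egr1, a zinc finger factor, read 13.68, 12.90 and 13.26 at 18 h, against 13.42, 12.84 and 13.30 at 2 h. Both had overlapping groups and no difference called (adjusted p = 0.515 and 0.839), while the means of untreated cells were 7.42 for Fos and 10.62 for Egr1. Junb, an AP-1 subunit, read 10.86, 10.35 and 10.11 at 18 h, against 8.53, 8.56 and 8.52 at 2 h and rose 3.73-fold (adjusted p = 3.37e-05). Zfp36, which destabilizes AU-rich transcripts, read 11.99, 11.51 and 10.75 at 18 h, against 9.59, 9.70 and 9.22 at 2 h and rose 3.76-fold (adjusted p = 0.00164). Dusp1, a phosphatase of MAP kinases, read 13.29, 13.20 and 12.73 at 18 h, against 11.57, 11.77 and 11.17 at 2 h and rose 2.97-fold (adjusted p = 0.000775). Late replicate 3 was the lowest late array in each, and still above all early arrays. Srf, the factor that binds many immediate early promoters, fell 2.2-fold (adjusted p = 0.000529), and Fosb, a further AP-1 subunit, fell 2-fold (adjusted p = 0.0106).

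Interferon and antigen presentation genes changed in both directions. Of 17 tested genes of this list 5 rose (29.4%, against 18.2% of all genes) and 6 fell (35.3%, against 14%). Only 3 rose when late replicate 1 or 2, or early replicate 1 or 3, was left out. H2-K1, a class I heavy chain, read 10.74, 10.52 and 10.37 at 18 h, against 8.80, 9.51 and 8.98 at 2 h and rose 2.73-fold (adjusted p = 0.000671). A second, dim probe of H2-K1 read a log2 difference of 0.20. H2-D1, a further class I heavy chain, rose 2.54-fold (adjusted p = 0.00237). Psmb9, an immunoproteasome subunit, read 9.73, 9.33 and 9.45 at 18 h, against 7.47, 7.86 and 7.48 at 2 h and rose 3.74-fold (adjusted p = 0.00026), with more than 1 log2 unit between the groups. Class I genes are similar in sequence, and whether these probes tell them apart was not tested. Ifitm1, a membrane protein used as a marker of early germ and stem cells, read 10.08, 10.20 and 10.68 at 18 h, against 12.25, 11.72 and 12.35 at 2 h and fell 3.45-fold (adjusted p = 0.000128). Ifitm2 fell 1.97-fold (adjusted p = 0.00484), and Irf1, an interferon regulatory factor, fell 1.72-fold (adjusted p = 0.00167).

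Imprinted genes, expressed from 1 parental copy, moved in both directions. Of 19 tested 6 rose (31.6%, against 18.2% of all genes) and 5 fell (26.3%, against 14%). Without 18 h replicate 2 or without 2 h replicate 3, 3 rose. Beside Cdkn1c, Slc22a18, its neighbour in the Kcnq1 cluster on chromosome 7, read 8.00, 6.72 and 6.88 at 18 h, against 5.46, 4.98 and 5.82 at 2 h and rose 3.43-fold (adjusted p = 0.00249). Phlda2, in the same cluster, read 10.00, 9.66 and 9.36 at 18 h, against 10.90, 10.93 and 10.81 at 2 h and fell 2.31-fold (adjusted p = 0.000425). Both had separate groups. Igf2r, the receptor that clears IGF2, rose 2.05-fold (adjusted p = 0.000354). Grb10, an adaptor that restrains growth, read 9.05, 9.73 and 9.61 at 18 h, against 11.62, 11.85 and 11.48 at 2 h and fell 4.56-fold (adjusted p = 8.47e-06), while a dim second probe read a difference of -0.19.

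Markers of the lineages that stem cells form rose at shares near the 18.2% of all genes. Of 12 tested endoderm genes 3 rose (25%) and 0 fell. Of 14 trophectoderm and placenta genes 3 rose (21.4%) and 1 fell (7.14%, against 14% of all genes), with 6 rising under the replicate block. Of 9 primitive streak and mesoderm genes 2 rose (22.2%) and 1 fell (11.1%), with 0 rising without 18 h replicate 1 or 2 h replicate 3. Of 8 Hox genes 2 rose (25%) and 1 fell (12.5%), with 1 rising without any one 2 h array. Pdgfra, a receptor of primitive endoderm, read 6.39, 6.41 and 6.15 at 18 h, against 5.01, 4.76 and 4.78 at 2 h and rose at least 2.39-fold (adjusted p = 2.34e-05), with no early array above background. Cdx2, the homeodomain factor of trophectoderm and of the posterior embryo, read 6.91, 7.55 and 7.30 at 18 h, against 5.62, 6.00 and 4.83 at 2 h and rose 3.42-fold (adjusted p = 0.000814). Hoxd8 read 6.46, 6.92 and 6.39 at 18 h, against 5.14, 5.22 and 4.76 at 2 h and rose 2.93-fold (adjusted p = 0.000186). In these 3 genes every late array was above every early one. Gata4 and Foxa2 did not pass the filter on detection, and Eomes read 6.45, 6.39 and 5.73 at 18 h, against 5.96, 6.80 and 6.05 at 2 h (adjusted p = 0.833). Thy1, listed as a fibroblast marker and also made by other cells, rose 3.02-fold (adjusted p = 0.00168), and Col1a1 was above background on 1 of 3 late and 0 of 3 early arrays.

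Some genes crossed the detection limit altogether. A gene was above background on all late and no early array in 301 cases (2.63%), and the reverse held in 66 (0.577%). Called higher at 18 h were 267 of the 301, and called lower were 55 of the 66. Of the 301, 94 were already above background on all 6 h arrays and 73 on none, and 183 were above background on no untreated array. Because 52 of the 301 were detected at no time but 18 h, they passed the filter through the late arrays alone and had to differ in detection. The genes named below in either direction were picked by this crossing and by size, so their p-values are no separate support for it. Beside Oas1e, the largest were Slpi, a leukocyte protease inhibitor, Rgs9, a regulator of G-protein signalling, Slc6a13, a GABA transporter, Ido1, the enzyme that opens the tryptophan ring, Usp18, which removes ISG15 from proteins, 2610016A17Rik (at least 4.97-fold) and Morn5 (at least 4.17-fold). Ido1 read 7.57, 7.21 and 7.58 at 18 h, against 4.64, 4.92 and 4.48 at 2 h and rose at least 5.27-fold (adjusted p = 1.13e-06). Usp18 read 7.29, 7.32 and 7.30 at 18 h, against 4.68, 4.77 and 4.42 at 2 h and rose at least 4.75-fold (adjusted p = 2.87e-06). In both genes the late arrays were within 0.4 of each other and the early ones at background. Slpi rose at least 5.8-fold, Slc6a13 at least 5.67-fold and Rgs9 at least 6-fold, although a further probe of Rgs9 read a difference of 0.09. In the other direction 38 of the 66 were above background on all untreated arrays. Beside Lefty2 and Prmt8, Pecam1, an adhesion molecule of naive stem cells and endothelium, read 4.59, 4.61 and 4.67 at 18 h, against 5.72, 5.87 and 6.74 at 2 h and fell at least 2.14-fold (adjusted p = 0.00174), and Klk1, a kallikrein, fell at least 2.5-fold (adjusted p = 0.00383).

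Where cells stood at 6 h was asked by testing the 6 h mean against the midpoint of the 18 h and 2 h means, a contrast independent of their difference. It was called for 361 genes (3.15%), 206 above the midpoint (1.8%) and 155 below it (1.35%). Of the 2080 risers 50 were nearer to 18 h and 44 nearer to 2 h by this test, and of the 1597 fallers 44 were nearer to 18 h and 32 nearer to 2 h. The median share of the difference present at 6 h was 49.4% in risers and 50.4% in fallers. The calls depended on the 6 h arrays. With limma's test 0 genes passed without 6 h replicate 1 (1589 at an unadjusted p under 0.05), 9 without 6 h replicate 2 and 56 without 6 h replicate 3. Leaving out 1 late array gave 929 (replicate 1), 147 (replicate 2) or 141 (replicate 3), and leaving out 1 early array gave 133 (replicate 1) or 121 (replicate 2). Every call of the 6 h contrast named next was therefore lost without 6 h replicate 1.

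**Figure D4:**
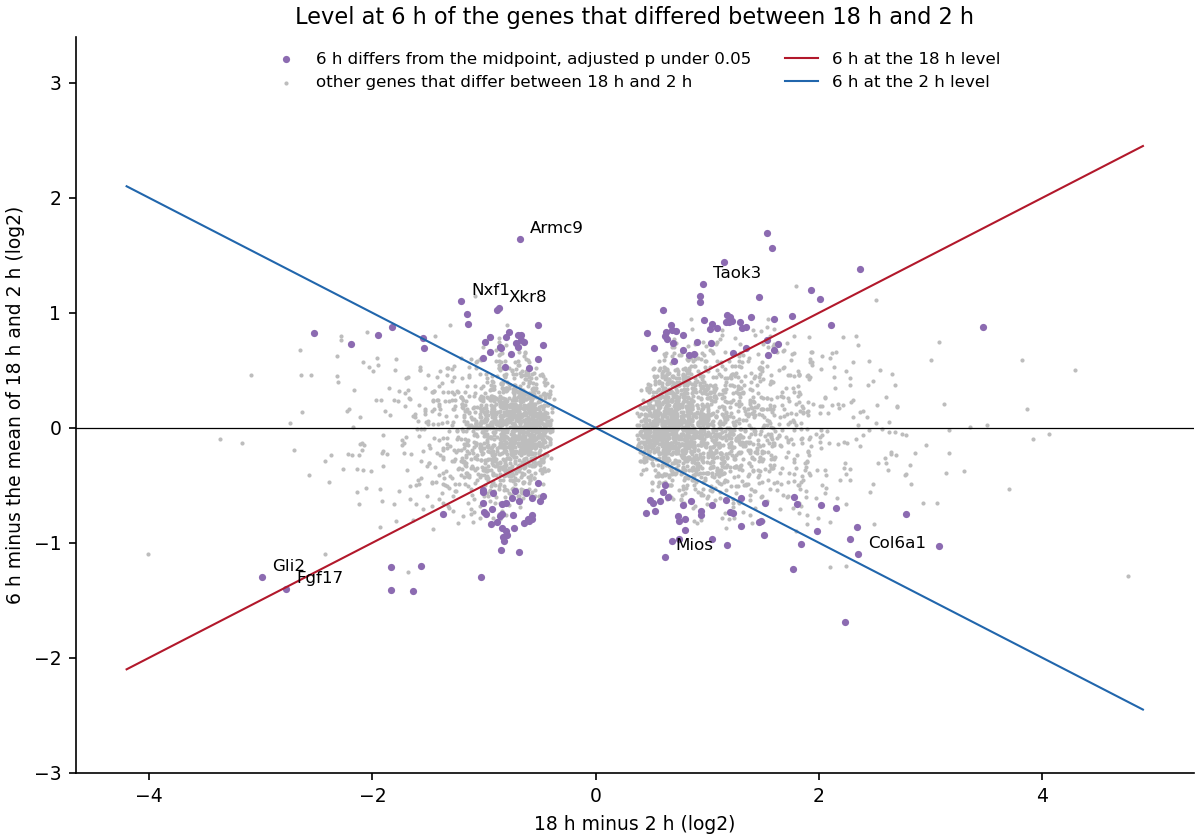
Difference of the 6 h mean from the midpoint of the 18 h and 2 h means (log2, vertical axis) against the 18 h minus 2 h difference (log2, horizontal axis) for the 3677 genes called between 18 h and 2 h. Purple points differed from the midpoint at an adjusted p under 0.05. Genes on the red line had reached their 18 h level at 6 h and genes on the blue line were still at their 2 h level. Most points lie around 0, between the lines.

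Gli2 and Fgf17 were near their late level at 6 h. Gli2 read 6.48, 6.28 and 7.14 at 6 h, a difference from the midpoint of -1.30 ± 0.27 (adjusted p = 0.026), and Fgf17 read 5.45, 5.09 and 5.57 (-1.40 ± 0.20, adjusted p = 0.00685). For both genes the 6 h arrays lay with the late arrays and apart from the early ones. Col6a1, a collagen VI chain, was still near its early level: its means at 0, 2, 6 and 18 h were 5.05, 5.10, 5.17 and 7.45. Nxf1, the messenger RNA export receptor, had its highest mean at 6 h, with 8.31, 8.82, 9.31 and 7.61 at 0, 2, 6 and 18 h. Taok3, a kinase of the stress pathways, also had its highest mean at 6 h, with 7.33, 7.39, 9.13 and 8.36 at these times. Rassf4, a Ras-association protein, was near its late level at 6 h, with means of 5.49, 5.99, 8.55 and 8.36. Between 18 h and 2 h Taok3 rose 1.95-fold (adjusted p = 0.00422) and a second, dimmer probe read a difference of 0.04.

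Untreated cells were nearer to early than to late cells at most genes that could be placed. The 0 h mean differed from the midpoint at 2405 genes (21%), 1012 above (8.84%) and 1393 below (12.2%). The count was 1514 without 0 h replicate 1 and 1319 without 0 h replicate 3. Among risers 798 were nearer to 2 h and 13 nearer to 18 h at 0 h, and among fallers 597 were nearer to 2 h and 52 nearer to 18 h. The 13 and 52 are genes whose late mean lay closer to the untreated mean than the early mean did. Kbtbd13, a Kelch protein of muscle, had means of 7.59, 5.79, 5.97 and 7.15 at 0, 2, 6 and 18 h, a difference of the 0 h mean from the midpoint of 1.12 ± 0.26 (adjusted p = 0.00898). Xkr8, a phospholipid scramblase, ran the other way with means of 4.79, 6.33, 6.93 and 5.46 at the same times, high at 2 h and 6 h (-1.10 ± 0.20, adjusted p = 0.00215). Zbtb8b, a zinc finger protein, had means of 7.23, 8.73, 8.94 and 7.87 (-1.06 ± 0.18, adjusted p = 0.00167). Of the genes nearer to 2 h at 0 h, Nppb, the natriuretic peptide B precursor, had means of 5.02, 6.76, 9.04 and 9.83 at the 4 times, and Nupr1, a stress-induced chromatin protein, had 9.52, 8.06, 6.88 and 5.99.

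**Figure D5:**
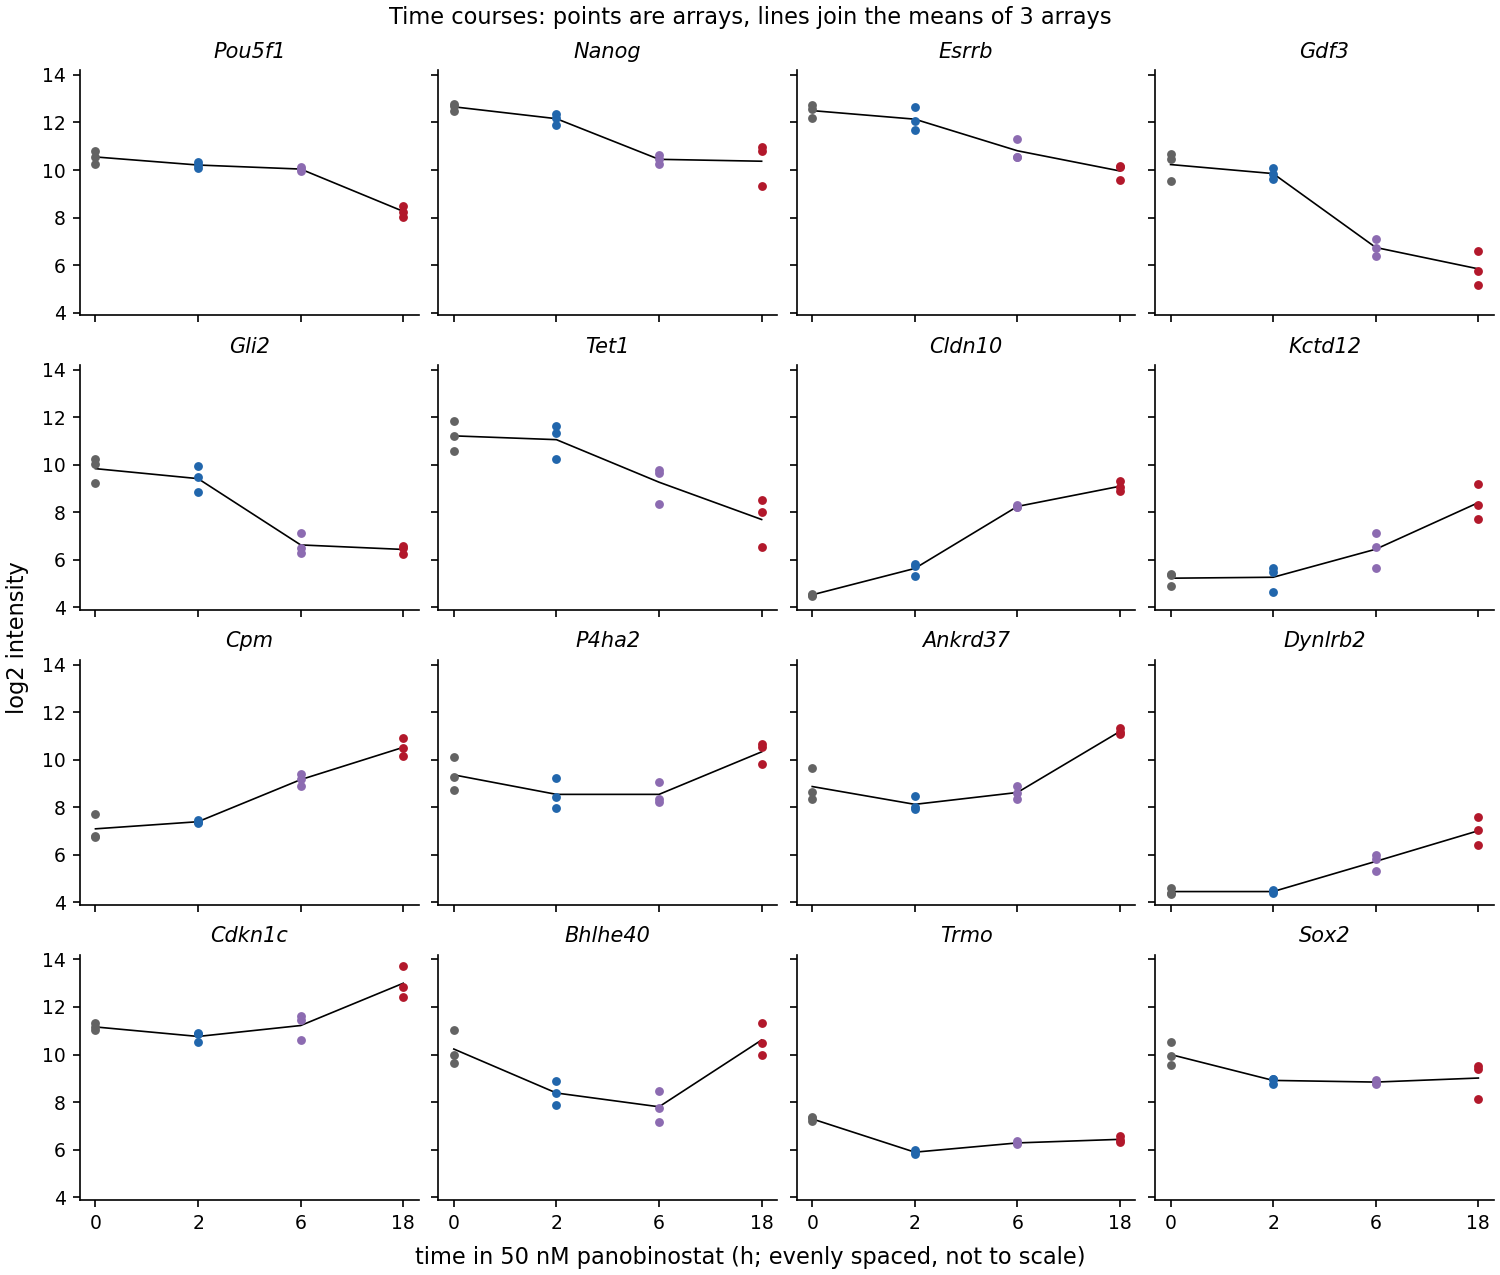
Log2 intensity of 16 genes on each array at 0, 2, 6 and 18 h of panobinostat (horizontal axis, evenly spaced and not to scale). Points are arrays and lines join the means of 3. Gdf3, Gli2 and Nanog were close to their late level at 6 h, Pou5f1, Ankrd37, P4ha2 and Bhlhe40 were close to their early level at 6 h, and the 18 h and 2 h points of Sox2 overlap.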

How the data were processed

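RNA of 12 E14 samples was hybridised to Illumina mouse bead arrays, 3 each at 0, 2, 6 and 18 h of 50 nM panobinostat. The deposited files hold, per the file headers, an intensity and a detection p-value for each probe and array, unnormalized, and a second table of the authors' normalized intensities. The authors used GenomeStudio, per the submitters' processing notes, and further steps are not given in the sources used here. Here intensities were background-corrected with limma 3.58.1 (normexp by detection p-values, offset 16), quantile-normalized and put on the log2 scale, as the deposited intensities are linear. A probe was kept where at least 3 of 12 arrays detected it (p-value under 0.05), and a gene was read by its brightest kept probe. In R 4.3.3, lmFit estimated the mean of each of the 4 groups from the 12 arrays, followed by eBayes, 2-sided tests and Benjamini-Hochberg adjustment over 11445 genes at 0.05. Errors printed after ± are standard errors of a log2 difference between groups of 3 or, for the 6 h and 0 h contrasts, from the midpoint.

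Probes were named through the platform annotation: 34885 had 1 gene, 18 several and 10378 none, and 34807 matched a current symbol. The members and the gene lists were chosen with earlier results of these data known. Some genes belong to several lists and are counted in each. Genes were named by rule: the 15 largest changes in each direction, up to 5 called members of each list in each direction by p, all members of lists of 10 or fewer, 13 regulators whatever their value, genes that crossed detection, and called genes off the midpoint at 6 h or 0 h. Of the 13 regulators, Hdac1 and H1f0 had no probe under their names and were not tested. The model was tested on simulated data. Alternatives changed the background correction, offset, normalization, filter, probe choice, array weights, replicate block and arrays included. The number of arrays, 3 per group, limits the precision.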

Additional observations from a re-analysis of the deposited data

How the results depend on the processing

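Of 290 named genes called between 18 h and 2 h, 198 kept their calls under every alternative run. All 339 named genes, called or not, gave 3705 values under another setting and 4050 with 1 array left out. Of these values 143 and 312 lost the call, which only the 290 called genes could lose. Direction was kept by all of these genes but a pair: Cox4i1 reversed with 75th percentile scaling (-0.01, adjusted p = 0.963) and Armc9 with the mean of all kept probes (0.14, adjusted p = 0.592). The number of genes called between 18 h and 2 h ranged from 2683 to 3988 with 1 array left out, those higher at 18 h from 1531 to 2245 and those lower from 1096 to 1743. The number at least 2-fold ranged from 1111 to 1469, and was 435 without background correction, 442 in the authors' normalized intensities and 767 with offset 50. These settings add to low intensities or leave background in them, so they shrink folds of dim probes by construction.

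The 6 h contrast was the least stable. Its count was 554 without background correction (340 above the midpoint), 557 in the authors' normalized intensities (341 above), 573 with offset 50 (342 above) and 1479 with array weights (844 above, 635 below). With 1 array left out it ran from 0 to 929, from 0 to 556 above and from 0 to 373 below. The 0 h contrast ran from 1319 to 2517, from 565 to 1035 above and from 754 to 1512 below. The cause was not tested.

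With the replicate number as a block, 4465 genes were called between 18 h and 2 h, all 3677 of the reported ones among them, and 995 at 6 h against the midpoint (526 above, 469 below). Same-numbered arrays of 18 h and 2 h had correlated deviations of 0.07, 0.23 and 0.21, and each array correlated best with its own number, a hint from the data only. The labels do not say what a number shares. Signal near background limits the folds of dim genes, for which bounds were given. Called named genes had 173 further kept probes. Of these, 67 read a much smaller change than the main probe or the opposite sign, the latter in 16. Main and further log2 differences were -2.70 and -0.44 for Cobl, 2.49 and 0.81 for Syt1, and 1.63 and 0.57 for H1f10. They were -1.25 and -0.56 for Kat2b, -1.04 and -0.51 for Tbl1x, -0.97 and -0.41 for E2f3, and -1.2 and -0.59 for Fn1. The main probe of Tbx3 read -2.42 and its further probes read -2.47, -0.37 and -0.19.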

Other observations

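ATF4 activates genes of the amino acid stress response. Of 19 tested 7 fell (36.8%, against 14% of all genes), 0 rose and 12 did not pass the test, with a median log2 difference of -0.14. The count of falls was 4 without 18 h replicate 3 or without 2 h replicate 2. Nupr1, a stress-induced chromatin protein, read 6.08, 6.06 and 5.84 at 18 h, against 7.84, 8.18 and 8.17 at 2 h and fell 4.2-fold (adjusted p = 8.8e-05). Sesn2, which senses leucine upstream of mTORC1, read 6.22, 6.25 and 6.14 at 18 h, against 7.62, 8.09 and 7.50 at 2 h and fell 2.9-fold (adjusted p = 7.85e-05), with separate groups and further probes at -0.58 and 0.01. Among matrix genes, Timp1, an inhibitor of metalloproteinases, read 12.13, 11.71 and 10.72 at 18 h, against 9.35, 9.52 and 9.14 at 2 h and rose 4.55-fold (adjusted p = 0.000281), while Mmp14, a membrane metalloproteinase, fell 3.05-fold and Fn1 (fibronectin) 2.3-fold (adjusted p = 0.000464 and 0.000814). Id1, a target of BMP signals that blocks basic helix-loop-helix factors, read 11.89, 11.79 and 12.09 at 18 h, against 10.00, 9.96 and 8.91 at 2 h, with early replicate 3 lowest and no overlap, and rose 4.92-fold (adjusted p = 0.000988).

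Probes without a gene name were fitted with all kept probes. At 18 h 338 of 3000 were higher and 363 lower than at 2 h, together 23.4%, against 28.8% of probes with 1 gene.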
